A study of Mus musculus with 4 samples.

Results

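The serpins are a superfamily of proteins that share a fold and are named for the serine protease inhibitors among them. Their transcripts were compared between 4T1-S and 4T1-A, a pair of sub-lines of 4T1, a carcinoma line of the mouse mammary gland. Members were taken by name, as every array spot other than a control whose gene name was Serping1 or was Serpin followed by a clade letter from a to i and a number. This gave 54 genes, measured by 73 probes, of the 27676 gene names and 41174 probes on the array. The family itself was put forward for description because it was chosen from values of this same comparison, in which Serpinb5 and Serpinf1 stand far from equal levels. Differences of members between the sub-lines are therefore given as a description and support nothing beyond these arrays.

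An inhibitory serpin offers a protease an exposed loop as bait, is cut there, and traps the enzyme in a covalent complex that is then cleared. Clade A and several single-gene clades are mostly secreted plasma proteins made by the liver, among them inhibitors of elastase and thrombin. Clade B proteins, also called ov-serpins, are mostly kept inside the cell, where some protect it from cathepsins or from the granzymes that killer lymphocytes deliver. A few members inhibit no protease: Serpinb5 (maspin) is a product of normal mammary and other epithelia, Serpinf1 (pigment epithelium-derived factor) is secreted and restrains blood vessel growth, and Serpinh1 is a chaperone of collagen. In mice, clusters of clade A and clade B genes have expanded into families of close copies, so that human members often have several mouse counterparts.

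Total RNA of each sub-line was read on 2 one-colour Agilent arrays, labelled with Cy3. 4T1-S is described in the title of the series as highly immunogenic, and 4T1-A is the other sub-line. Both carry 4T1 as their labelled parental line, which comes from a BALB/c mouse, and the labels name no treatment, no time and no genetic change. No label says how either sub-line was derived, whether it is 1 clone, or whether its 2 arrays stem from independent cultures, so the p-values reflect only how far these arrays differ, a spread that may be technical. The arrays lay on 1 slide, with the 4T1-A arrays ahead of the 4T1-S arrays, so position and sub-line cannot be told apart.

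Signals are given as relative signal, which is the processed intensity of a probe divided by the 75th percentile of its array. Levels can be set beside each other for 1 probe across arrays, but not between probes, since probes differ in how brightly they bind. The share of spots well above background was 59.2% and 58.2% on the 4T1-S arrays and 54.9% and 56.3% on the 4T1-A arrays. The markers of mammary epithelium were above background on all 4 arrays for 6 of 6 genes, and the keratin Krt8 had relative signals of 130 and 127 in 4T1-S and 139 and 155 in 4T1-A. For endothelium, 3 of 4 markers were below background on every array, with summed relative signals of 0.159 to 0.211 in 4T1-S and 0.1 to 0.103 in 4T1-A. Among hepatocyte markers 4 of 5 were below background on every array, and their sums were 0.197 to 0.215 in 4T1-S and 0.154 to 0.167 in 4T1-A. Such sums can be set beside each other between sub-lines but not between cell types, and the brightest probes make up most of a sum.

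The promoters of 5 members are shown because these were the genes that passed the test and had a probe above background on all 4 arrays, so that their differences are measured on both sides. The sequences are the 250 bases before the annotated start in RefSeq, assembly GRCm38.p6, printed 5′ to 3′ on the strand of the gene. Serpinb5 (chr1:106860925-106861174, plus strand), Serpina3g (chr12:104235897-104236146, plus strand) and Serpine2 (chr1:79858666-79858915, minus strand) were lower in 4T1-S. Serpinf1 (chr11:75422624-75422873, minus strand) and Serpinb6b (chr13:32965011-32965260, plus strand) were higher in 4T1-S. Capitals mark matches on either strand to any of 5 motifs. The TATA box, which helps position the polymerase, was searched as TATAAA. A common upstream element was searched as CCAAT, and the GC box that Sp1 family factors can bind as GGGCGG. For the dimeric AP-1 factors TGANTCA was searched, with N for any base. This wide pattern also takes TGAATCA and TGATTCA, beside the usual sites TGACTCA and TGAGTCA. The site of the STAT factors of cytokine signalling was searched as TTCNNNGAA.
Serpinb5: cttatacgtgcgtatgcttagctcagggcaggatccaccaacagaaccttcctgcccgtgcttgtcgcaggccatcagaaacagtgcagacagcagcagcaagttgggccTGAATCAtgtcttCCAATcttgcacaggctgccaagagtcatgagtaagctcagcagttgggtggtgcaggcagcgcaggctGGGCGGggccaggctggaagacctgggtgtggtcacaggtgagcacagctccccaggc
Serpina3g: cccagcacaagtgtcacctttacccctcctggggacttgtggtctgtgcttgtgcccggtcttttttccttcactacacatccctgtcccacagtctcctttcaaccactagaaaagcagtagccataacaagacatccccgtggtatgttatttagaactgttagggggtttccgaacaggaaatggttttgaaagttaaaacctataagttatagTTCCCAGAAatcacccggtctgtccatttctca
Serpine2: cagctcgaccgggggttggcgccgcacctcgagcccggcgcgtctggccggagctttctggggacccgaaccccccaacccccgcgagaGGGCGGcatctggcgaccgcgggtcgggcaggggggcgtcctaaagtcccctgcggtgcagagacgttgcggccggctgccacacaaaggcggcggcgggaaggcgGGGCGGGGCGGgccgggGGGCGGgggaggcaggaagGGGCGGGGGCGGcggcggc
Serpinf1: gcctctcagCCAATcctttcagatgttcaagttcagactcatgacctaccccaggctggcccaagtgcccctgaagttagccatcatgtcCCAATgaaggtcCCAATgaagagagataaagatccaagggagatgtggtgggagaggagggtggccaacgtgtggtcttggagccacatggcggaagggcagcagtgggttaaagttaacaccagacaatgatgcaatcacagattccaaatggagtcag
Serpinb6b: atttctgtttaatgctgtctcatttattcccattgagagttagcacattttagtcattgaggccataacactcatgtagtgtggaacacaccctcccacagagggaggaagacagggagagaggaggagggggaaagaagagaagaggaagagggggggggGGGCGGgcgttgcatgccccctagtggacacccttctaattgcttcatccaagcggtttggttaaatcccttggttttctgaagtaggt
None of the 5 motifs was found in all 5 windows. The Serpinb5 window holds 1 match to the wide AP-1 pattern (TGAATCA, not a usual site), 1 CCAAT box and 1 GC box. That of Serpina3g holds 1 STAT match and nothing else searched, and that of Serpinf1 holds 3 CCAAT boxes. Serpinb6b has 1 GC box, and Serpine2 has 6, some of which overlap, in a window with 34 CpG pairs. The windows of the other 4 hold 6 CpG pairs in Serpinb5, 4 in Serpina3g, 2 in Serpinf1 and 3 in Serpinb6b.

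RefSeq promoters were found for 44 of the 54 members and numbered 52, against 32851 promoters in all. A TATA box was found in 32.7% of member promoters and in 12.4% of all promoters. Matches to the wide AP-1 pattern were found in 19.2% and 6.75%, and STAT matches in 17.3% and 7.02%. Those of members include TGAATCA and TGATTCA, as in Serpinb5 and Serpinb12. GC boxes were found in 13.5% of member promoters and 32.7% of all, and CCAAT boxes in 28.8% and 33.8%. The median number of CpG pairs was 2 in member promoters, with a range of 0 to 34, and 6 in all promoters. Windows of the same gene can overlap, as in Serpina11, Serpina3f, Serpina7 and Serpinb2, so that the same match is counted again. Close copies within a cluster also share sequence, so these shares are descriptions of letters and not of factors that bind there.

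Many serpin transcripts were not detected in these cells. Of the 54 genes, 17 had a probe well above background on all 4 arrays and 22 had none above background on any array. By probe, 34 of 73 were never above background, beside 15038 of the 41174 on the whole array. Those above on all 4 arrays were 19, beside 20887. The comparison was run on the 26 members whose brightest probe exceeded background on each array of 4T1-S, of 4T1-A or of both. By limma with Benjamini-Hochberg adjustment over all 16158 genes tested and a threshold of 0.05, 4 members were higher in 4T1-S, 4 were lower and 18 did not pass. Over all genes tested the same rule called 4.00% higher and 3.01% lower, and since the family was chosen from this comparison nothing is read from the members' count.

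The 4 higher were Serpinf1, Serpinb6b, Serpinb9g and Serpina12, and the 4 lower were Serpinb5, Serpina3g, Serpind1 and Serpine2. The median difference of the 26 tested members was 0.44 on the log2 scale, 4T1-S minus 4T1-A, and that of all genes tested was 0.13. Among members above background on all 4 arrays the median was 0.30 (17 genes), against 0.10 for all such genes (14194). Another 9 tested members entered through 1 sub-line: 7 were above background on both 4T1-S arrays and on 1 or none of the 4T1-A arrays, and 2 only on both 4T1-A arrays. A member that entered in this way had to differ, so the direction of those 9 is set by the filter.

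Scaling the arrays to their medians put the median difference of all genes at -0.16 in place of 0.13. With that scaling 2 members were higher and 5 lower, beside 1.18% and 5.50% of all genes, and with quantile normalization 2 were higher and 4 lower, beside 1.65% and 2.88%. Relative to the median of all genes under the main scaling, the differences of the called members were -4.70 for Serpinb5, -2.89 for Serpina3g, -1.10 for Serpine2, 0.72 for Serpina12, 0.96 for Serpinb9g, 1.17 for Serpinb6b and 3.03 for Serpinf1. Serpind1 was not well above background on either 4T1-S array, so its difference is only bounded. None of the 8 called members changed sign under any alternative that was run. The counts moved with single arrays, as did the shares over all genes. Without 4T1-S replicate 1, 2 members were higher, beside 0.964% of all genes, and without 4T1-S replicate 2, 1 was higher, beside 0.568%. Without 4T1-A replicate 2, 8 members were lower, beside 6.16% of all genes.

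**Figure D1:**
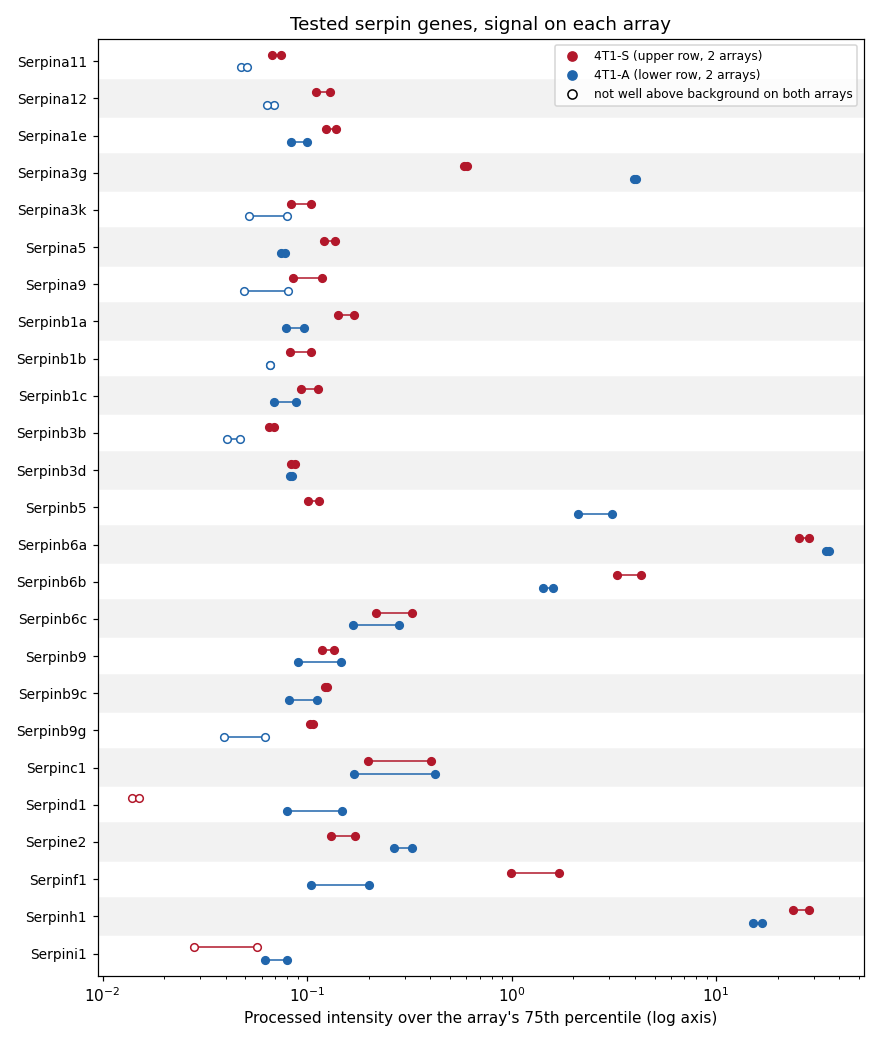
Relative signal (processed intensity over the array's 75th percentile, log axis) of 25 of the 26 tested serpin genes, with 4T1-S in the upper row and 4T1-A in the lower row of each gene and 1 point per array. Open points mark a sub-line in which the probe was not well above background on both arrays. The pairs of points lie far apart for Serpinb5, Serpina3g, Serpind1 and Serpinf1 and close together or overlapping for genes such as Serpinb3d, Serpinb9 and Serpinc1.

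Clade B was the largest clade on the array, with 24 genes and 35 probes, of which 10 probes were above background on all 4 arrays and 15 on none. Of its 12 tested genes, 2 were higher in 4T1-S, 1 was lower and 9 did not pass, beside 4.00% higher and 3.01% lower of all genes. Serpinb5, the epithelial non-inhibitory serpin, had relative signals of 0.115 and 0.101 in 4T1-S and 3.08 and 2.12 in 4T1-A. All of its 4T1-S values lay far below those of 4T1-A while staying above background. Serpinb5 was 23.7-fold lower in 4T1-S (log2 difference -4.57 ± 0.23 SE, 95% interval -5.10 to -4.03, n = 2 arrays each, limma adjusted p = 3.6e-05). By size of difference it ranked 19 among the 16158 genes tested, and its difference ran from -4.86 to -3.31 over the alternatives, with adjusted p at most 0.00725. In RNA of whole cultures, fewer cells that express a gene and less RNA of it per cell cannot be told apart.

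Other epithelial genes moved beside Serpinb5. Of the 6 mammary epithelial markers, 3 were lower in 4T1-S by the same test and 3 did not pass, beside 3.01% lower of all genes. The summed relative signals of the markers, mostly those of Krt8 and Krt18, were 199 to 233 in 4T1-S and 243 to 257 in 4T1-A. The adhesion molecule Epcam had relative signals of 0.181 and 0.177 in 4T1-S and 2.12 and 2.86 in 4T1-A (-3.78 ± 0.21, limma adjusted p = 5.47e-05). The keratin Krt19 differed by -2.61 ± 0.28 and E-cadherin, Cdh1, by -1.11 ± 0.18. The call of Cdh1 was not kept when either 4T1-S array was left out (adjusted p = 0.0996 without replicate 1 and 0.0940 without replicate 2). Krt8 and Krt18 differed by -0.19 and -0.14 and did not pass. The part of an epithelial shift in the Serpinb5 difference was not tested.

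A pair of groups of close copies within clade B are linked to killing by lymphocytes. The Serpinb6 group includes Serpinb6a, an inhibitor of cathepsin G, and Serpinb6b, described in mice as an inhibitor of granzyme A. Relative signals of Serpinb6b were 3.27 and 4.28 in 4T1-S and 1.43 and 1.60 in 4T1-A. The sub-lines did not overlap, and Serpinb6b was 2.47-fold higher in 4T1-S (1.30 ± 0.21, 95% interval 0.82 to 1.79, limma adjusted p = 0.0117). Without 4T1-S replicate 2 the difference was 1.11 and no longer passed (adjusted p = 0.111), and its adjusted p was 0.0821 when dim probes were not filtered.

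Serpinb6a, the clade B gene whose probe gave the highest signal, went the other way without passing. Its relative signals were 28.6 and 25.4 in 4T1-S and 35.5 and 34.5 in 4T1-A (-0.38 ± 0.19, limma adjusted p = 0.223), and its second, dim probe gave 0.33. Serpinb6c had 0.327 and 0.217 in 4T1-S and 0.167 and 0.282 in 4T1-A, so the sub-lines overlapped (0.30 ± 0.30, adjusted p = 0.561). Members of this group resemble each other closely, and cross-binding between their probes was not tested, so which copy a signal comes from is uncertain.

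Serpinb9, the mouse inhibitor of granzyme B, had relative signals of 0.135 and 0.118 in 4T1-S and 0.147 and 0.0898 in 4T1-A. The 4T1-S values lay between those of 4T1-A, and the difference was 0.13 ± 0.26 (95% interval -0.47 to 0.74, limma adjusted p = 0.774). A second Serpinb9 probe, also above background on all 4 arrays, gave 0.09. An increase or a fall of Serpinb9 within that interval would not have been detectable with 2 arrays per sub-line.

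Its copy Serpinb9g had 0.103 and 0.107 in 4T1-S and 0.0391 and 0.0620 in 4T1-A, where 1 of the 2 arrays was above background. Serpinb9g was 2.14-fold higher in 4T1-S (1.10 ± 0.25, limma adjusted p = 0.0413), and the filter admitted it only through the sub-line in which it was brighter. The call was lost under 9 of the 14 alternatives, among them those without 4T1-S replicate 1 (adjusted p = 0.162), 4T1-S replicate 2 (0.177) and 4T1-A replicate 1 (0.163). A second, dim probe of Serpinb9g gave 0.13. Serpinb9c was above background on all 4 arrays and differed by 0.37 ± 0.21 (adjusted p = 0.295), and Serpinb9b, Serpinb9d and Serpinb9e were never above background.

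The Serpinb1 group covers copies of the inhibitor of neutrophil elastase. Serpinb1a had relative signals of 0.142 and 0.169 in 4T1-S and 0.0787 and 0.0964 in 4T1-A, which did not overlap. Its difference of 0.83 ± 0.20 fell just outside the threshold (limma adjusted p = 0.0525), and with scaling to the median it was 0.54 (0.183). With 1 array left out it ran from 0.69 (without 4T1-A replicate 1) to 0.98 (without 4T1-A replicate 2). Serpinb1b and Serpinb1c differed by 0.49 ± 0.20 (0.155) and 0.39 ± 0.21 (0.265).

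Of the Serpinb3 group, counterparts of the human squamous cell carcinoma antigens, only the probes of Serpinb3d and Serpinb3b entered the test. Serpinb3d had 0.0832 and 0.0875 in 4T1-S and 0.0843 and 0.0822 in 4T1-A and differed by 0.04 ± 0.18 (limma adjusted p = 0.920). Serpinb3b, above background in 4T1-S alone, was at least 1.34-fold brighter there and did not pass (0.61 ± 0.19, adjusted p = 0.0880). Serpinb2, the intracellular and secreted inhibitor of plasminogen activators known as PAI-2, was above background on 1 4T1-A array only, by both of its probes, and was not tested.

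Clade A had 20 genes and 25 probes, of which 3 probes were above background on all 4 arrays and 17 on none. Among its 7 tested genes 1 was higher in 4T1-S, 1 was lower and 5 did not pass, beside 4.00% higher and 3.01% lower of all genes. Serpina3g, also called Spi2A, is a mouse inhibitor of cathepsins that leukocytes switch on during activation. Its relative signals were 0.604 and 0.586 in 4T1-S and 3.96 and 4.06 in 4T1-A. Replicate arrays agreed closely within each sub-line, and Serpina3g was 6.73-fold lower in 4T1-S (-2.75 ± 0.18, 95% interval -3.17 to -2.33, limma adjusted p = 0.000126). It ranked 115 by size of difference, and over the alternatives ran from -3.04 to -2.40 with adjusted p at most 0.00829.

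The levels of leukocyte markers stand beside this difference, and their part in it was not tested. Of 6 such markers 0 passed the test, 3 were above background on all 4 arrays and 2 on none, and their summed relative signals were 0.47 to 0.565 in 4T1-S and 0.392 to 0.396 in 4T1-A. The pan-leukocyte marker Ptprc had 0.0569 and 0.101 in 4T1-S and 0.0509 and 0.0534 in 4T1-A and was above background on 1 array. Serpina3f and Serpina3n, close relatives of Serpina3g, were never above background, and Serpina3k differed by 0.54 ± 0.25 (limma adjusted p = 0.207). Serpina3i and Serpina3j, which follow Serpina3g in the genome, had no probe under these names. Cross-binding of such copies to the Serpina3g probe was not tested.

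Serpina12, or vaspin, an adipose-derived serpin, had 0.130 and 0.111 in 4T1-S and 0.0689 and 0.0637 in 4T1-A, where it did not clear background. Vaspin was higher in 4T1-S by at least 1.81-fold (0.85 ± 0.19, limma adjusted p = 0.0403), again admitted only through the brighter sub-line. The call was lost under 10 of 14 alternatives, with adjusted p of 0.181 without 4T1-S replicate 1, 0.134 without 4T1-S replicate 2, 0.0681 without 4T1-A replicate 1 and 0.0507 without 4T1-A replicate 2.

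Its neighbour in clade A, Serpina5, the protein C inhibitor, lay just outside the threshold. Serpina5 had 0.121 and 0.137 in 4T1-S and 0.0742 and 0.0778 in 4T1-A (0.76 ± 0.19, limma adjusted p = 0.0521), while its second, dim probe gave -0.14. Serpina1e, a copy of alpha-1-antitrypsin, differed by 0.53 ± 0.20 (0.128), Serpina11 by 0.53 ± 0.19 (0.114) and Serpina9 by 0.68 ± 0.28 (0.162). With 1 array left out, the difference of Serpina9 ran from 0.32 (without 4T1-A replicate 2) to 1.03 (without 4T1-A replicate 1). Serpina11 and Serpina9 were admitted only through 4T1-S, where they were brighter. All of these clade A signals other than Serpina3g were at most 0.139, close to the lowest signal above background, which lay between 0.0488 and 0.0596 over the arrays.

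The remaining clades hold 1 or 2 genes each, most of them known from coagulation and fibrinolysis. Serpinc1, antithrombin, had relative signals of 0.402 and 0.198 in 4T1-S and 0.424 and 0.169 in 4T1-A. By this brightest probe the level followed the replicate number and not the sub-line. The difference was 0.08 ± 0.46 (95% interval -0.99 to 1.15, limma adjusted p = 0.930), and its sign turned in 4 alternatives. A second, dimmer probe had 0.0508 and 0.0656 in 4T1-S, where 1 array was above background, and 0.0749 and 0.0699 in 4T1-A. It gave -0.33 and did not follow the replicate number. Serpind1, heparin cofactor II, which inhibits thrombin, had 0.0140 and 0.0151 in 4T1-S, too dim to clear background, and 0.149 and 0.0802 in 4T1-A. Serpind1 was lower in 4T1-S by at least 1.91-fold. Its difference of -2.92 ± 0.29 (limma adjusted p = 0.00110) rests on 4T1-S signals not well above background. With another background correction the difference was -0.36 and did not pass (0.166).

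Serpine2, or protease nexin-1, inhibits thrombin and plasminogen activators. Serpine2 had 0.172 and 0.131 in 4T1-S and 0.325 and 0.265 in 4T1-A, without overlap, and was 1.95-fold lower in 4T1-S (-0.97 ± 0.22, 95% interval -1.47 to -0.46, limma adjusted p = 0.0422). Serpine2 was the member just inside the threshold. Its call did not hold when 4T1-S replicate 1 (adjusted p = 0.0977), 4T1-S replicate 2 (0.196) or 4T1-A replicate 1 (0.123) was left out. With normexp background correction the difference was -0.46 and did not pass (0.143), nor did it pass with dim probes kept (0.123) or with every probe tested on its own (0.0578).

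Serpinf1 had the largest rise in 4T1-S of the tested serpins. Its relative signals were 0.993 and 1.71 in 4T1-S and 0.105 and 0.200 in 4T1-A. Each 4T1-S value was several times each 4T1-A value, and Serpinf1 was 8.99-fold higher in 4T1-S (3.17 ± 0.36, 95% interval 2.34 to 4.00, limma adjusted p = 0.00206). A second probe, also above background on all 4 arrays, had 0.752 and 1.14 in 4T1-S and 0.0704 and 0.136 in 4T1-A and gave 3.25. Serpinf1 ranked 79 by size of difference, passed whichever array was left out, and lost its call only when dim probes were not filtered (adjusted p = 0.0623). Over the alternatives its difference ran from 2.23 with normexp background correction to 3.64 without 4T1-A replicate 2.

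Fibroblasts are a known source of this protein in tissue. Of 5 fibroblast markers 0 passed the test, 1 was above background on all 4 arrays and 1 on none, and their summed relative signals were 1.01 to 1.06 in 4T1-S and 0.504 to 0.75 in 4T1-A. Most of that sum was Pdgfra, a growth factor receptor, with 0.780 and 0.758 in 4T1-S and 0.324 and 0.529 in 4T1-A. Its difference of 0.89 ± 0.25 did not pass (limma adjusted p = 0.0735), and without 4T1-A replicate 2 it was 1.25. The matrix marker Dcn was above background on 1 array of each sub-line. The part of such cells in the Serpinf1 difference was not tested. Serpinf2, the plasmin inhibitor next to Serpinf1 in the genome, was never above background.

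Serping1, the inhibitor of complement C1, was above background on 1 4T1-S array, with 0.0810 and 0.0435 in 4T1-S and 0.0274 and 0.0405 in 4T1-A, and was not tested. Serpinh1 had 28.4 and 23.7 in 4T1-S and 16.7 and 15.1 in 4T1-A. The sub-lines did not overlap, yet the difference of 0.71 ± 0.20 did not pass (95% interval 0.26 to 1.16, limma adjusted p = 0.0686). Serpini1, or neuroserpin, an inhibitor of tissue plasminogen activator in the nervous system, had 0.0280 and 0.0572 in 4T1-S, not well above background, and 0.0794 and 0.0622 in 4T1-A. By these signals it read at least 1.20-fold lower in 4T1-S and did not pass (-0.81 ± 0.33, limma adjusted p = 0.156). With normexp background correction the difference was -0.02 (0.948). With 1 array left out it ran from -1.33 (without 4T1-S replicate 2) to -0.30 (without 4T1-S replicate 1). Serpini2 was never above background.

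**Figure D2:**
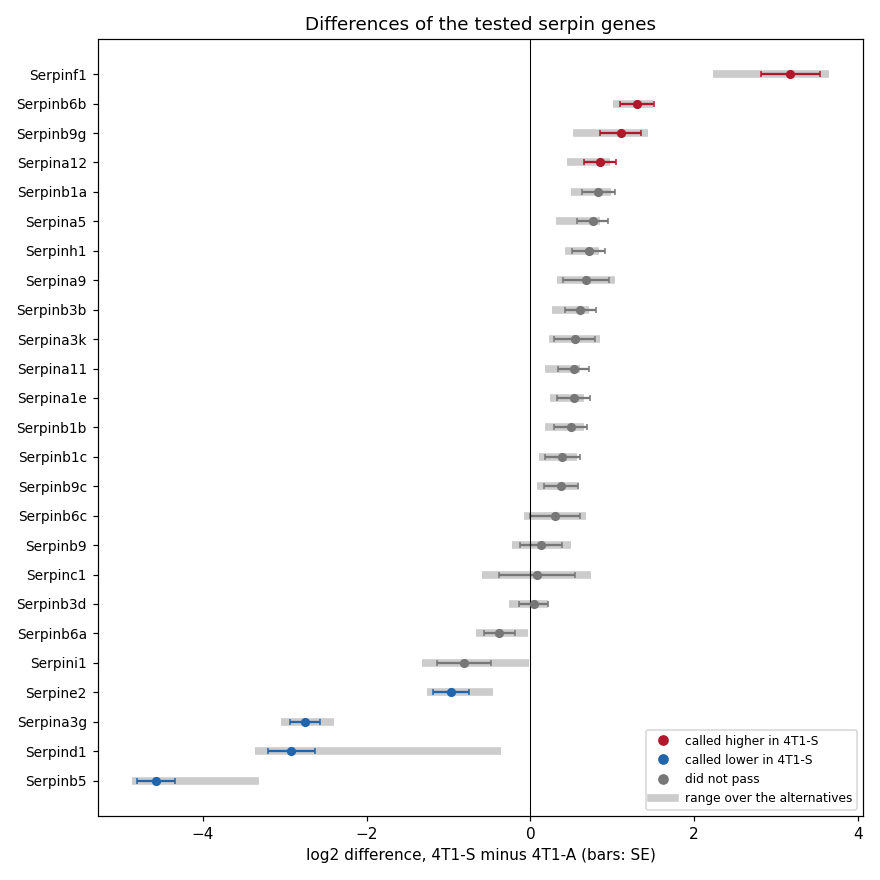
Log2 difference of 25 of the 26 tested serpin genes, 4T1-S minus 4T1-A, with bars of 1 standard error and a grey band for the range over the alternative ways of processing. Red marks the 4 genes called higher in 4T1-S, blue the 4 called lower and grey those that did not pass. Serpinf1 stands at the upper end and Serpinb5 at the lower, and the band of Serpind1 reaches -0.36.

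The 22 genes with no probe above background on any array were mostly liver-made or tissue-restricted serpins. In clade A they included Serpina10, Serpina1b, Serpina1d, Serpina1f, Serpina3a, Serpina3b, Serpina3c, Serpina3m, Serpina4-ps1 and Serpina7, the thyroxine-binding globulin. In clade B they included Serpinb3a, Serpinb3c, Serpinb7, Serpinb11 and Serpinb13. A further 6 genes were above background on single arrays and stayed out of the test: Serpina6, Serping1, Serpinb2, Serpinb8, Serpinb10 and Serpinb12. Serpina6, the corticosteroid-binding globulin, read 0.162 on 4T1-A replicate 1 against 0.0377 on the other 4T1-A array, and 0.0527 and 0.0614 in 4T1-S.

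The dim probes leaned to 1 side. Of the 34 member probes never above background, 32 (94.1%) read higher in 4T1-S, with a median difference of 0.28 on the log2 scale. The same held across the array, where 86% of 15038 never-detected probes read higher in 4T1-S, with a median of 0.20. Among probes above background on all 4 arrays the median was 0.30 for the 19 of members and 0.08 for all 20887. The 75th percentiles by which signals were divided were 405 and 497.6 on the 4T1-S arrays and 467.5 and 577.4 on the 4T1-A arrays. The part of these divisors in the lean was not tested, nor was that of the lean in the small positive differences of faint serpins.

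Most mouse serpins sit in 3 clusters. Of the 19 clade A genes on chromosome 12, 3 had a probe above background on all 4 arrays and 11 had none on any, and 7 were tested, of which Serpina12 was higher and Serpina3g lower in 4T1-S. The 12 clade B genes on chromosome 1 had 2 above on all arrays and 5 on none, and of 3 tested only Serpinb5 passed, as lower. The 12 clade B genes on chromosome 13 had 7 above on all arrays and 3 on none, and of 9 tested Serpinb6b and Serpinb9g were higher and 0 were lower. On chromosome 1 the genes above background on all arrays were Serpinb5 and Serpinb3d. All genes tested were called higher in 4.00% and lower in 3.01%, so nothing is read from counts of so few members per cluster.

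**Figure D3:**
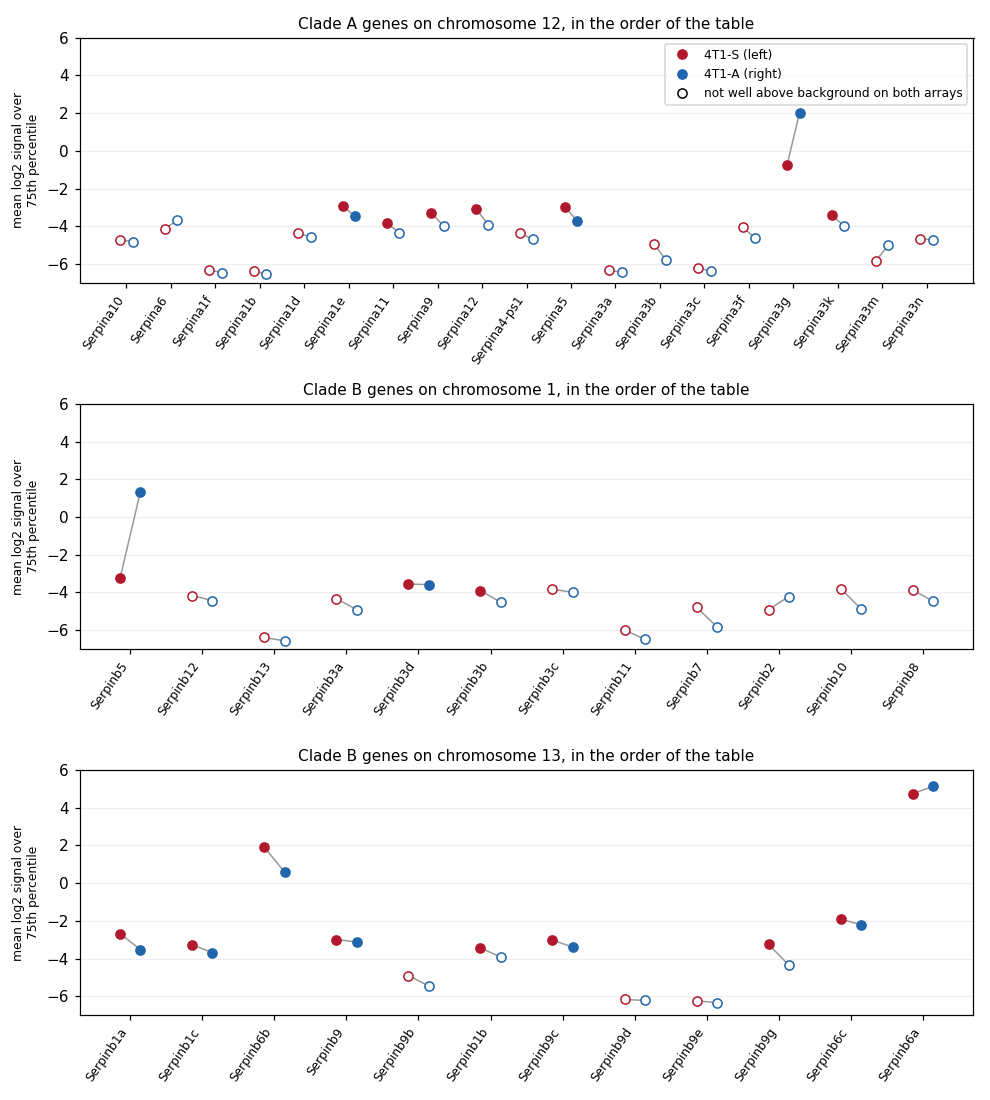
Mean log2 relative signal of every serpin gene of the 3 clusters in the order of the RefSeq table, with 4T1-S left of 4T1-A for each gene and a grey line joining the pair. Open points mark a sub-line not well above background on both arrays. Heights can be compared within a gene but not between genes, and the longest lines are those of Serpinb5 on chromosome 1 and Serpina3g on chromosome 12.

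Genes beside the called members were looked up 3 places to each side, in the same table. The genes before Serpinb5, which are Bcl2, Kdsr and Vps4b, differed by -0.12, -0.30 and -0.25 and did not pass. Near Serpina3g only Serpina3k could be tested, and around Serpinb6b 5 of 6 neighbours were tested and 0 passed. Serpine2 and Serpind1 had 0 called neighbours of 5 and 6 tested, and Serpina12 and Serpinb9g had 0 of 4 and 1 tested. Of the 5 tested neighbours of Serpinf1, 1 was higher in 4T1-S and 1 was lower. Rtn4rl1, 3 places away, was higher by 3.32 ± 0.21 (limma adjusted p = 9.69e-05). Tlcd2 on the other side was lower by -0.95 ± 0.19 (0.0260), and Rpa1, Smyd4 and Wdr81 between them did not pass. Over all genes tested 4.00% were called higher and 3.01% lower, so nothing is read from counts of so few neighbours. Tlcd2 lost its call when 4T1-S replicate 1 (0.119) or replicate 2 (0.149) was left out and when dim probes were kept (0.0916), and with normexp its difference was -0.22 (0.236).

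Proteases that serpins can act on were counted from a list of 36, all of which had a probe. Of 22 tested, 2 were higher in 4T1-S, 3 were lower and 17 did not pass, with a median difference of 0.01 beside 0.13 for all genes. The shares over all genes tested were 4.00% higher and 3.01% lower. The higher were Masp1, a protease of the lectin pathway of complement that Serping1 inhibits (1.53 ± 0.19, limma adjusted p = 0.00319), and the kallikrein Klk10 (1.28 ± 0.22, 0.0142). St14, the epithelial membrane protease matriptase, had relative signals of 4.15 and 3.28 in 4T1-S and 10.9 and 11.3 in 4T1-A (-1.59 ± 0.20, 0.00369). With the mean of its probes Masp1 differed by 0.57 and did not pass (0.0959). When 4T1-S replicate 2 was left out, Masp1 (0.0516), Klk10 (0.0715) and St14 (0.0540) did not pass, nor did Klk10 when 4T1-S replicate 1 was left out (0.113).

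Prss22, an epithelial serine protease, was lower by -1.90 ± 0.28 (limma adjusted p = 0.00743). Casp1, the caspase that matures interleukin-1 beta and is blocked by a viral serpin, had 0.0222 and 0.0476 in 4T1-S, not well above background, and 0.937 and 1.32 in 4T1-A. Casp1 was lower in 4T1-S by at least 19.4-fold. Its difference of -5.10 ± 0.36 (limma adjusted p = 0.000169) rests on those dim 4T1-S signals. The plasminogen activators that Serpine2 inhibits did not pass: Plau, the urokinase, differed by -0.33 ± 0.19 (0.299) and Plat, the tissue activator, by 0.75 ± 0.29 (0.138). Without 4T1-A replicate 2 the difference of Plat was 1.06. Granzyme B, Gzmb, was above background in 4T1-S alone at 0.0971 and 0.0761, against 0.0501 and 0.0497 in 4T1-A, and did not pass (adjusted p = 0.0577), and Gzma was never above background.

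Of 19 receptors and cofactors through which serpins or their complexes act, 17 were tested. In 4T1-S 1 was higher, 1 was lower and 15 did not pass, with a median of -0.02. All genes tested were called higher in 4.00% and lower in 3.01%. Itgb3, the integrin subunit that pairs with Itgav, had 2.92 and 2.32 in 4T1-S and 0.956 and 1.01 in 4T1-A (1.40 ± 0.20, limma adjusted p = 0.00677). Itgb3 lost its call without 4T1-S replicate 1 (0.0675). Lrp1, which clears complexes of serpins with proteases, differed by -0.10, the urokinase receptor Plaur by 0.12, and Vldlr by -1.03 ± 0.29 without passing (0.0739), although it passed without 4T1-S replicate 1 (0.0407), 4T1-A replicate 1 (0.0172) or 4T1-A replicate 2 (0.0174).

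**Figure D4:**
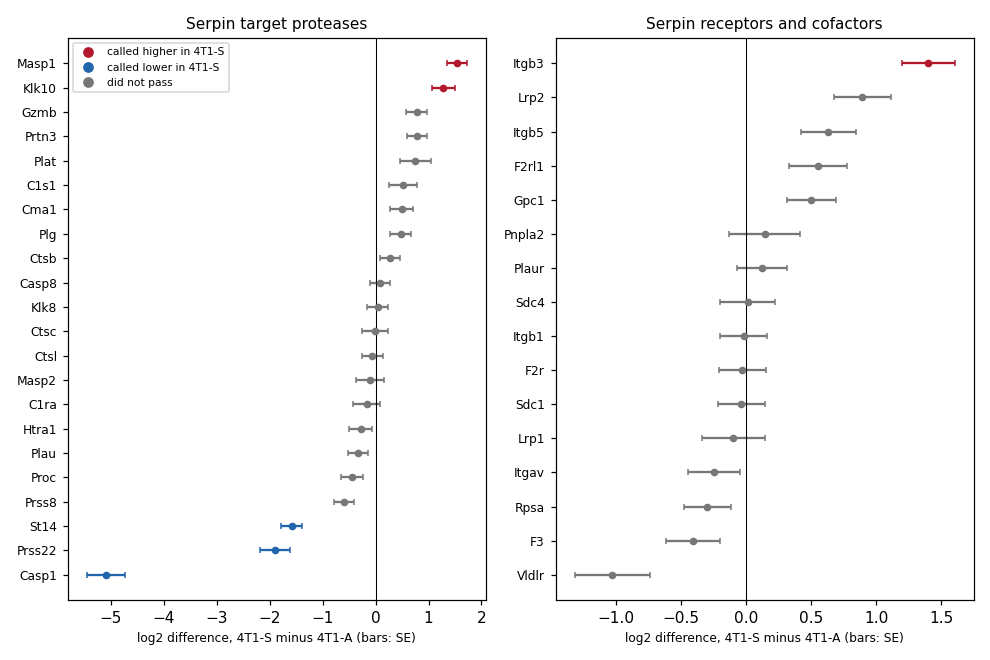
Log2 difference, 4T1-S minus 4T1-A with bars of 1 standard error, of the 22 tested target proteases (left) and 16 of the 17 tested receptors and cofactors (right). Red marks genes called higher in 4T1-S, blue those called lower and grey those that did not pass. Casp1, Prss22 and St14 lie at the lower end of the proteases and Masp1 and Klk10 at the upper end.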

How the data were processed

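Intensities of the 4 arrays were extracted with Agilent Feature Extraction 9.1, per the submitters' processing notes. Per the file headers, the deposited processed intensity is background-subtracted and spatially detrended, with surrogates for low signals. The deposited table of the series gives a ratio, which by its values is the intensity over the array's 75th percentile (column medians 0.098 and 0.091 for 4T1-S, 0.078 and 0.076 for 4T1-A). At most 1 of 43379 spots per array was saturated. Gene names follow the file of 4T1-S replicate 2, because 47 names differed in that of 4T1-A replicate 1, and were updated through RefSeq tables.

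Log2 intensities minus the array's log2 75th percentile were averaged over spots of a probe, leaving out 5 to 9 outlier-flagged spots per array. A gene's value is that of its brightest probe. Genes whose brightest probe exceeded background on each array of 4T1-S, of 4T1-A or of both were fitted in R 4.3.3 by the lmFit and eBayes functions of limma 3.58.1, with 2 residual and 5.74 prior degrees of freedom and 2-sided p-values. P-values were adjusted by Benjamini-Hochberg over 16158 genes, with a threshold of 0.05. Where a sub-line was not well above background, a fold is written as at least, against whichever was higher, the probe's own signal or the lowest signal that cleared background. Such a bound leaves out the spread between arrays and the choice of processing. For Serpina12 the probe's own signals were the higher, so its fold is the measured one. The fitting step was run on simulated data with planted differences larger than those of most called members and with no background filter. That run does not bear on smaller differences or on dim probes. The tested members are named, with array values for those of at least 2-fold or brightest in a clade and for others described. Of the partner lists the genes that passed are named, some genes that counts include are not reported here, and other partners, markers and neighbours were chosen after their values were seen. The members, the lists and the tests were chosen with earlier results of these data known. Alternatives changed the background correction, scaling, filter, probe choice, outlier spots, variance model, arrays, replicate block and source of the values. The files name no genome build, so gene order and chromosomes are those of GRCm38.p6. Precision is limited by having 2 arrays per sub-line.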

Additional observations from a re-analysis of the deposited data

How the results depend on the processing

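The count of 4 serpin genes higher in 4T1-S became 2 under 5 of the alternatives that kept all 4 arrays. Among these were normexp background correction (1.43% of all genes higher), quantile normalization (1.65%) and scaling to the median (1.18%). The others were a filter requiring all 4 arrays above background (2.16%, with 17 members left) and every probe tested on its own (2.46%, by the brightest probe of each gene). The count was 0 with no filter, where 54 members entered and 0.351% of all genes were called higher (3 were lower, and 0.629% of all genes). Leaving out 1 array gave between 1 and 4 higher, beside 0.568% to 8.41% of all genes, and between 3 and 8 lower, beside 1.24% to 6.16%, a lone array being assumed to vary like the others. The count of 4 lower became 2 with normexp (1.77%) and 8 without 4T1-A replicate 2 (6.16%). With no filter the calls of Klk10 (adjusted p = 0.0902), Prss22 (0.0853), Itgb3 (0.0624), Krt19 (0.0515) and Cdh1 (0.0699) were also lost. With the replicate block, 10 were higher and 5 lower, beside 15.6% and 7.20% of all genes. Same-numbered arrays deviated together (r = 0.42 across genes, which are not independent), but with 2 pairs and no label of a shared origin the samples share only a number.

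Of the 26 members, the calls of Serpinb5 and Serpina3g passed under every alternative, and Serpinf1 and Serpind1 under all but 1 of those that tested them. The call of Serpind1 rests on 4T1-S signals not well above background. Signs turned for 4 members that did not pass. Serpinb3d gave -0.26 with quantile normalization and with scaling to the median, and between 0.00 (without 4T1-S replicate 2) and 0.07 with 1 array left out. Serpinb6c gave 0.00 without 4T1-S replicate 1, -0.08 without 4T1-A replicate 1 and up to 0.68 without another array. Serpinb9 gave -0.04 with quantile normalization, -0.16 with scaling to the median and between -0.23 (without 4T1-A replicate 2) and 0.49 with 1 array left out. Serpinc1 gave -0.21 with scaling to the median, -0.12 with the mean of its probes, -0.43 without 4T1-S replicate 1, -0.59 without 4T1-A replicate 2 and up to 0.74 without another array. The cause was not tested. The limit for many serpins is signal: 22 of 54 genes were never above background.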

Other observations

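The RefSeq table gives a serpin name to 2 further probes that carry other names in the array files and were left out of the family by its rule. The probe it names Serpine3 had relative signals of 0.0133 and 0.0408 in 4T1-S and 0.0127 and 0.0122 in 4T1-A. An additional probe it names Serpinb6a had 0.0280 and 0.0191 in 4T1-S and 0.0140 and 0.0245 in 4T1-A. Neither was above background on any array.

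Of the 19 members with more than 1 probe, 4 had more than 1 probe above background on both arrays of a sub-line. For Serpinf1 the probes gave 3.25 and 3.17, for Serpinb9 0.13 and 0.09, for Serpinb1c 0.52 and 0.39 and for Serpinc1 0.08 and -0.33, so the pair that split in sign was that of antithrombin.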
